A study of Mus musculus with 6 samples.

Results

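Stat3 and 9 genes of the cytokine receptors that signal through it were followed in mTECs, an immortalised mouse renal tubular epithelial line, after lipopolysaccharide (LPS). The 10 genes were taken by symbol from a table of 22442 genes: Stat3 itself, the receptor chains Il6st, Il6ra, Lifr, Osmr, Il11ra1 and Il10rb, and the ligands Lif, Il6 and Il11. Of these, 8 had a mean of at least 0.5 FPKM (fragments per gene, scaled to gene length and library size), the level required for testing, and Il6 and Il11 lay under it. The data were 6 poly(A) RNA-seq libraries, 3 labelled LPS, from cells given a negative control RNA, and 3 labelled LPSKD, from cells given an RNA against Stat3. All 6 received LPS at 20 μg/ml for 24 h, so every value below comes from stimulated cells. The labels call the silencing agent an siRNA, while the study's list of reagents gives an shRNA, and they describe the cells as magnetically sorted. Since Stat3 RNA was not lower in the second group, the groups are named here by their labels, LPS and LPSKD, throughout.

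Stat3 is a transcription factor that waits in the cytoplasm until a receptor-bound Janus kinase phosphorylates it, after which it enters the nucleus as a dimer. Most of its activating cytokines share the receptor chain gp130, which Il6st encodes: IL-6 and IL-11 first bind a receptor of their own (Il6ra, Il11ra1), whereas LIF and oncostatin M pair gp130 with Lifr or Osmr. Il10rb is the common second chain of the receptors for IL-10, IL-22 and the lambda interferons. In the kidney, tubule cells are known to phosphorylate Stat3 during injury and to respond to IL-6-type cytokines.

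Markers of the epithelium and of tubule cells in general were abundant, while several markers of single nephron segments were at or near 0. Over the list of 16 tubule and epithelial markers the summed FPKM lay between 3237 and 3315 across libraries labelled LPS and between 3197 and 3230 across those labelled LPSKD. Keratin genes (Krt8, Krt18), Epcam, Cdh16, Pax8 and Pax2 led the list. Of the segment markers, Slc34a1, Umod and Aqp2 were at 0 in all 6 libraries, and Lrp2, Slc12a1 and Slc12a3 had at most 3 fragments in any. Others were detected in every library, Cubn with 221 to 300 fragments and Aqp1 with 77 to 189. Of the 10 markers tested, Cdh16, Pax8, Pax2 and Aqp1 were higher and Krt18 was lower across libraries labelled LPSKD (limma, adjusted p from 0.00101 to 0.0319). These were 5 of 10, where 3.23% of all tested genes passed, and of the 5 calls those of Pax2 and Pax8 were kept with any single library left out. Whether this bears on the 10 genes was not tested. A list of 10 immune cell markers summed to between 36.9 and 39.5 FPKM and to between 29.2 and 42.4, with none at 0 in all libraries. The 8 stromal and endothelial markers summed to between 25.5 and 34.2 FPKM and to between 18.5 and 33.8. Totals ran from 24084827 to 25422171 fragments per library, so no library had a clear advantage in precision. In such bulk samples, fewer cells of a type and less RNA per cell cannot be told apart.

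Across the 10 genes Lif was the most abundant by FPKM and Il6 was nearly undetected. FPKM is scaled to gene length, which here was close to the merged coding length. Whether fragments outside the coding sequence were counted is not known, so the order between genes carries this limit. Lif (610 bases) had 1954 to 2199 fragments per library, and Stat3 (2310 bases) had 1775 to 2013. Lif led with a mean of 135 FPKM over the 6 libraries, followed by Stat3 at 33.6 and Il6st at 30.9, whose ranges overlapped although Stat3 was higher in 5 of 6 libraries. Il10rb came next at 10.6 FPKM, apart from its neighbours in every library. Il6ra at 3.38 and Il11ra1 at 3.13 could not be ordered, with Il6ra higher in 3 of 6 libraries. Osmr at 1.41 and Lifr at 0.882 overlapped in range, but Osmr was higher than Lifr in 6 of 6 libraries. Il11 at 0.438 overlapped Lifr, and Il6 at 0.0690 overlapped Il11. The coefficient of variation over the 6 libraries was 4.89% for Lif, 5.01% for Il6st, 5.86% for Stat3 and 6.94% for Il10rb. It was between 15.3% and 22.8% for the receptor chains specific to a ligand and reached 65.9% for Il11, with 3 to 15 fragments per library.

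**Figure D1:**
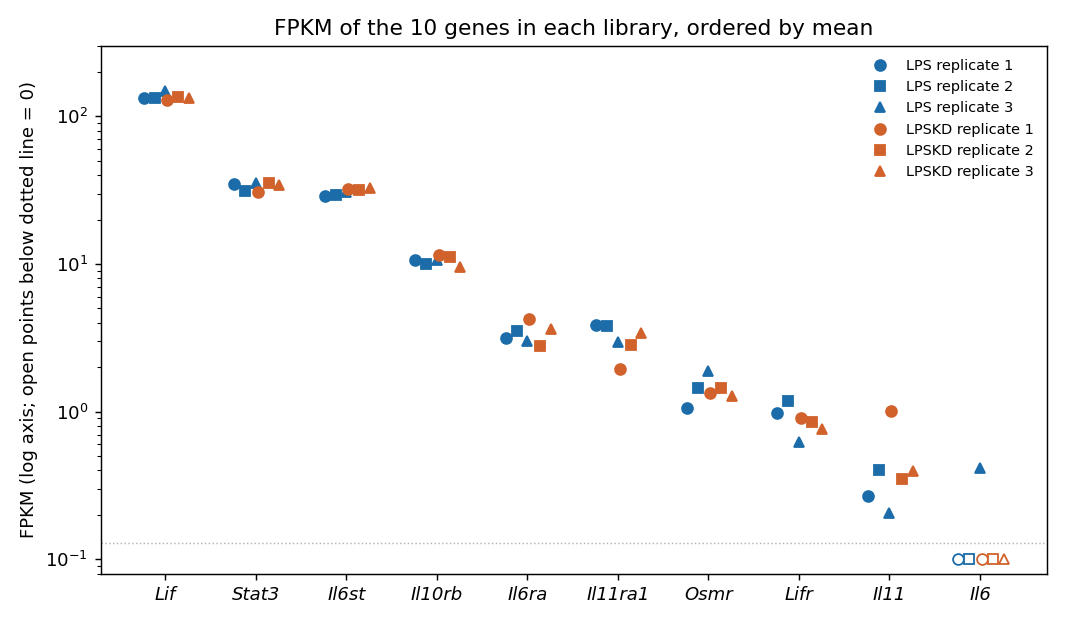
FPKM on a log axis of the 10 genes in each of the 6 libraries, ordered by mean, with blue symbols for the libraries labelled LPS, orange symbols for those labelled LPSKD, a symbol shape per replicate number, and open symbols below the dotted line for a value of 0. Lif lies between 128 and 148 FPKM, Stat3 and Il6st lie together between 29.1 and 35.2, and Il6 has a value above 0 in 1 library.

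None of the 8 tested genes differed between the groups at an adjusted p under 0.05 in limma on log2(FPKM + 0.1) with Benjamini-Hochberg adjustment over 11723 genes, where 3.23% of all tested genes did. At an unadjusted p under 0.05 there was 1 of 8, Il6st, against 17.6% of all tested genes. With limma's voom on recovered fragments the numbers were again 0 and 1. The groups did not overlap for 1 of 8, Il6st, against 23.8% of all tested genes. Of the 8, 1 had the LPSKD libraries wholly above the others and 0 wholly below, against 10.6% and 13.2% of all tested genes. The median log2 difference (LPSKD minus LPS) of the 8 was −0.04, with 3 above 0 and 5 below, beside −0.01 for all tested genes. The study describes its cell experiments in general as replicated, but the sources used here do not say whether the libraries of a group came from separate cultures, so the p-values measure the spread between these libraries, which may be technical. With 3 libraries a group, the smallest two-sided p of an exact permutation test is 0.1.

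Stat3 (ENSMUSG00000004040, chr11:100885098-100939540 of GRCm38, minus strand) was the gene the silencing RNA was directed at, and is therefore described first. Its 3 libraries labelled LPS had 34.6, 31.4 and 35.2 FPKM, and the 3 labelled LPSKD had 30.8, 35.2 and 34.3. The lowest value belonged to an LPSKD library and the next lowest to an LPS library, and the highest values of both groups were alike. Fragment counts behind these values ran from 1775 to 2013. Means were 33.7 ± 2.02 and 33.4 ± 2.35 (SD, n = 3 each), a log2 difference of −0.01 with a 95% interval from −0.17 to 0.14 (limma, adjusted p = 0.944). The sign of this difference turned to positive without replicate 1 (0.00) or replicate 3 (0.02) of the libraries labelled LPS, and without replicate 1 of those labelled LPSKD (0.04). Protein and phosphorylated Stat3 are not measured by RNA-seq and were not analysed here. The study itself reports Stat3 knockdown in mTECs by real-time PCR and by western blot. Whether those assays used the cultures of these libraries is not stated in the sources used here.

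The silencing sequence and the real-time PCR primers that the study lists for mouse Stat3 are printed to show which stretch of the transcript each addresses. In the first line, 25 bases of the spliced transcript stand on each side of the shRNA target, which is in capitals.
Stat3 transcript around the target: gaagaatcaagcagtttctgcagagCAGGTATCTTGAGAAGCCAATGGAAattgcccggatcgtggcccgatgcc
Stat3 forward primer: caccttggattgagagtcaagac
Stat3 reverse primer: aggaatcggctatattgctggt
The target lies at chr11:100908063-100908087 of GRCm38 on the minus strand. In the longest coding transcript that holds it, it lies in exon 4 and starts at coding base 276 of 2166. The length behind the Stat3 FPKM, merged over transcripts, was 2310 bases. It occurs in 4 of 14 annotated Stat3 transcripts, among them 3 of the 4 that are protein-coding, so that 1 protein-coding transcript lacks these letters. The primers lie in exon 2 (chr11:100911236-100911258) and exon 3 (chr11:100908718-100908739) and enclose 112 bases of coding sequence. Their amplicon ends 60 bases before the target begins. The FPKM value of Stat3 pools fragments over the whole coding length and does not separate these transcripts.

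To show how the target compares with related transcripts, it was laid without gaps along both strands of the annotated transcripts of Stat2, Stat4, Stat5a, Stat5b and Stat6, and the best match of each was kept. The lines show Stat3 and, of these genes, Stat4, which had the fewest mismatches, with bases equal to the target in capitals.
Stat3: CAGGTATCTTGAGAAGCCAATGGAA
Stat4: CAaGTtTCaTGgaAAtCCAATGcAt
Stat4 differed from the target at 8 of 25 bases (chr1:52065317-52065341) and its longest run of matches was 6 bases, and Stat2, Stat5a, Stat5b and Stat6 at 9 each. Whether a match of this kind is used by the cell was not tested.

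Il6st (ENSMUSG00000021756, chr13:112464070-112510086, plus strand), the gene of gp130, had the smallest p of the 8 tested genes. The libraries labelled LPS had 29.1, 29.3 and 30.6 FPKM and those labelled LPSKD had 32.0, 31.8 and 32.9. Every LPSKD library was above every LPS library, although the gap between the highest LPS and the lowest LPSKD value was small beside the level. With 2023 to 2337 fragments per library, the means were 29.6 ± 0.819 and 32.2 ± 0.586 (SD, n = 3 each). This was a log2 difference of 0.12, or 8.68%, with a 95% interval from 0.01 to 0.23 (limma, unadjusted p = 0.0364, adjusted p = 0.247), and the exact permutation test gave p = 0.1, the smallest it can give. Over the alternatives the adjusted p lay between 0.172 and 0.476, so the higher level of Il6st did not pass the threshold under any of them. The ratio of Il6st to Stat3 was 0.880 ± 0.0464 and 0.967 ± 0.0696 (SD, n = 3 each), and its groups overlapped.

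The receptor chains that give gp130 its ligand specificity were each present at a fraction of its level. Il6ra (ENSMUSG00000027947, chr3:89864059-89913196, minus strand), the IL-6 receptor, had 3.14, 3.49 and 3.0 FPKM across libraries labelled LPS and 4.24, 2.80 and 3.62 across those labelled LPSKD. Both the highest and the lowest value were LPSKD libraries, and the log2 difference was 0.12 with a 95% interval from −0.27 to 0.52 (limma, adjusted p = 0.773). Il11ra1 (ENSMUSG00000073889, chr4:41699989-41769474, plus strand), the IL-11 receptor, had 3.87, 3.78 and 2.97 FPKM across libraries labelled LPS. Across libraries labelled LPSKD it had 1.95, 2.85 and 3.40 FPKM. The groups overlapped through LPS replicate 3 and LPSKD replicate 3, and the log2 difference of −0.39 had a 95% interval from −0.89 to 0.11 (limma, adjusted p = 0.407).

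LPSKD replicate 1, in which Il11ra1 was lowest, also had the lowest values of the stromal genes Dcn (8.48 FPKM), Lum (3.59) and Col1a1 (3.02), and the lowest sum of the 8 stromal and endothelial markers. Of these 8 markers, 6 were lowest by FPKM in that library, and the exceptions were Pdgfra (0.731 FPKM there, lowest in LPS replicate 3 at 0.386) and Pecam1. Among the 6, Kdr and Tek had only 8 and 7 fragments there, and Tek also had 7 in LPS replicate 2. Of the 10 immune cell markers 5 were lowest there, among them Ptprc (0.372 FPKM), Adgre1 (0.530), Cd68 (9.64) and Lyz2 (17.3), and so was their sum. The part of such cells in the Il11ra1 value was not tested. Without that library the log2 difference of Il11ra1 had its smallest size over the alternatives, −0.17 (limma, adjusted p = 0.746). Il11ra1 also shares 70.1% of its coding stretches of 31 bases with Il11ra2 and Gm13305, near-identical copies listed with 0 to 2 fragments per library, so its value is uncertain by whatever the counting assigned to one copy or the other.

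Lifr and Osmr, the partners of gp130 for LIF and oncostatin M, were the lowest of the receptor chains. Lifr (ENSMUSG00000054263, chr15:7090614-7197489, plus strand) had 0.979, 1.17 and 0.623 FPKM across libraries labelled LPS and 0.903, 0.847 and 0.767 across those labelled LPSKD. The LPSKD values all lay inside the range of the LPS values. Osmr (ENSMUSG00000022146, chr15:6813577-6874969, minus strand) had 1.06, 1.45 and 1.90 FPKM against 1.35, 1.44 and 1.27, again with the LPSKD values inside the LPS range. Their log2 differences were −0.09 (95% interval −0.79 to 0.61) and −0.08 (−0.66 to 0.50), with limma adjusted p of 0.915 and 0.911. At 50 to 135 fragments per library, folds between 0.576 and 1.53 for Lifr and between 0.634 and 1.41 for Osmr lay inside these intervals.

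Il10rb (ENSMUSG00000022969, chr16:91406164-91425834, plus strand), which serves the IL-10 family, was the most abundant of the 6 receptor chains after Il6st. Its values were 10.7, 10.0 and 10.6 across libraries labelled LPS and 11.5, 11.2 and 9.49 FPKM across those labelled LPSKD. The LPSKD group held both the highest and the lowest value, and the log2 difference was 0.04 with a 95% interval from −0.17 to 0.25 (limma, adjusted p = 0.887). A read-through locus, Gm21970, contains 47.5% of the coding 31-base stretches of Il10rb and was at 0 in all 6 libraries.

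Set against gp130 within each library, these chains were outnumbered in all of them. The FPKM ratio of Il6st to Il6ra was 9.27 ± 0.915 across libraries labelled LPS and 9.33 ± 1.91 across those labelled LPSKD (SD, n = 3 each). For Il6st to Osmr it was 21.2 ± 5.69 and 23.9 ± 1.92, and for Il6st to Lifr 34.5 ± 12.8 and 38.6 ± 3.83 (SD, n = 3 each). The groups overlapped for all 3 ratios. They are ratios of transcripts per length and say nothing of protein at the cell surface.

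**Figure D2:**
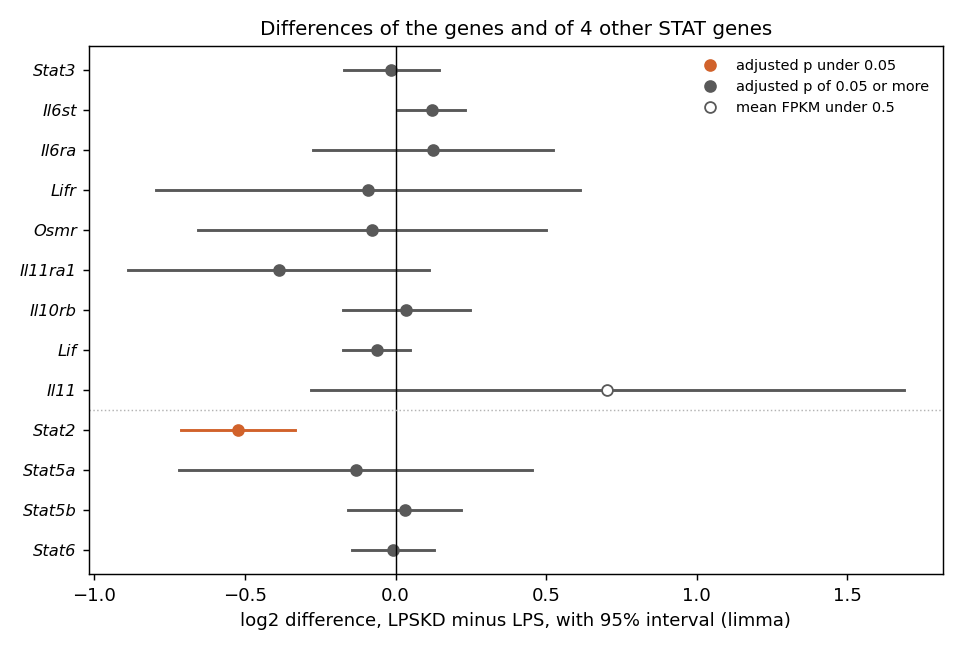
Log2 difference (LPSKD minus LPS) with its 95% interval from limma for 9 of the 10 genes, above the dotted line, and for 4 other STAT genes below it, with orange for an adjusted p under 0.05 and an open point for a mean under 0.5 FPKM. The intervals of Lifr, Osmr and Il11 are the widest of the 9, that of Il6st runs from 0.01 to 0.23, and Stat2 lies to the left of 0.

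The 3 ligands differed from each other by far more than the groups did. Lif (ENSMUSG00000034394, chr11:4257557-4272514, plus strand), a cytokine that acts through Lifr and gp130, had 133, 133 and 148 FPKM across libraries labelled LPS and 128, 134 and 133 across those labelled LPSKD. LPS replicate 3 stood highest, and the other 5 libraries were close together. Means were 138 ± 8.48 and 132 ± 3.15 (SD, n = 3 each), a log2 difference of −0.06 with a 95% interval from −0.17 to 0.05 (limma, adjusted p = 0.566). Without LPS replicate 3 it was −0.012. The FPKM of Lif exceeded that of its own receptor Lifr by a ratio of 162 ± 65.8 and 158 ± 15.5 (SD, n = 3 each), with the same limit of coding length.

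Il11 (ENSMUSG00000004371, chr7:4772373-4782859, minus strand) was near the limit of detection. It had 4, 6 and 3 fragments across libraries labelled LPS and 15, 5 and 6 across those labelled LPSKD. A single library, LPSKD replicate 1, held the 15 fragments (exact Poisson 95% interval 8.40 to 24.7, counting error only). The intervals of the other 5 overlapped it, that of LPS replicate 3 only narrowly, reaching 8.77. Overlap of intervals is not a test of a difference, so whether LPSKD replicate 1 stood apart was not tested. The log2 difference of 0.70 had a 95% interval from −0.28 to 1.69 (limma on all genes above 0, adjusted p = 0.531), and it was 0.29 without that library.

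Il6 (ENSMUSG00000025746, chr5:30013114-30019981, plus strand), the cytokine after which the receptor family is named, had 0 fragments in 5 of 6 libraries and 8 in LPS replicate 3 (0.414 FPKM, exact Poisson 95% interval 3.45 to 15.8 fragments). A count of 0 allows up to 3 fragments, which corresponds to between 0.149 and 0.157 FPKM in a single library here. The mean of the libraries labelled LPS, 0.138 FPKM, rests on replicate 3 alone, so no fold change is given. At 24 h of LPS these mTECs thus held 1954 to 2199 fragments of Lif per library and at most 8 of Il6.

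Beyond the 3, a list of 18 other ligands upstream of Stat3 had 7 tested genes, of which 1 was lower and 0 higher at an adjusted p under 0.05 (limma), against 1.66% and 1.57% of all tested genes. At an unadjusted p under 0.05 there were 4 of 7, against 17.6%. Their median log2 difference was 0.15, beside −0.01 for all tested genes. Il24, an IL-10 family cytokine, went from 125, 129 and 134 FPKM to 108, 116 and 112, with every LPSKD library below every LPS library. Its log2 difference was −0.21 with a 95% interval from −0.31 to −0.11 (limma, adjusted p = 0.0414). The call was lost when any single library other than LPS replicate 1 was left out, with adjusted p up to 0.163. Csf3, the gene of the granulocyte factor G-CSF, had 103 ± 5.78 and 114 ± 2.34 FPKM (SD, n = 3 each; limma, adjusted p = 0.144), and Il23a, a subunit of IL-23, had 13.8 ± 1.61 and 15.5 ± 1.36 (adjusted p = 0.426).

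Clcf1, which acts through gp130, Lifr and the receptor Cntfr, had 67.2, 61.8 and 62.8 FPKM across libraries labelled LPS and 81.0, 64.4 and 76.7 across those labelled LPSKD. These overlapped, and the log2 difference was 0.21 (limma, adjusted p = 0.24). Ctf1, the gene of cardiotrophin, another ligand of Lifr and gp130, had 8.41 ± 0.804 and 6.66 ± 0.524 FPKM (SD, n = 3 each; limma, adjusted p = 0.155). Osm had at most 2 fragments per library, and Il10, Il20, Il21, Il22, Il31 and Ctf2 were at 0 in all 6. Among the ligand genes of both lists, the most abundant were thus Lif, Il24, Csf3 and Clcf1.

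Among 20 other receptor genes upstream of Stat3, 8 were tested and 0 had an adjusted p under 0.05 (limma), where 3.23% of all tested genes passed. At an unadjusted p under 0.05 there were 3 of 8, against 17.6%, and voom called 1, against 5.11%. Their median log2 difference was 0.03. Egfr, the epidermal growth factor receptor, had 102 ± 2.46 FPKM across libraries labelled LPS and 111 ± 1.49 across those labelled LPSKD (SD, n = 3 each), groups that did not overlap. Its log2 difference of 0.12 had a limma adjusted p of 0.127, and 0.0482 with voom. Met, the receptor of hepatocyte growth factor, had 62.0 ± 2.05 and 64.6 ± 0.985 FPKM, and Tlr4, the receptor of LPS itself, 17.5 ± 0.934 and 18.3 ± 0.786 (SD, n = 3 each; limma, adjusted p = 0.502 and 0.718). Ifnlr1, the partner of Il10rb in the lambda interferon receptor, had 7.53 ± 0.625 and 7.57 ± 0.710 FPKM (SD, n = 3 each; limma, adjusted p = 0.985).

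Cntfr, the receptor chain that joins gp130 and Lifr for Clcf1, had 8.60, 7.70 and 7.81 FPKM across libraries labelled LPS and 6.03, 5.66 and 6.87 across those labelled LPSKD. Every LPSKD value was below every LPS value, but the log2 difference of −0.38 was not past the threshold (limma, adjusted p = 0.114). The FPKM ratio of Il6st to Cntfr was 3.70 ± 0.282 and 5.23 ± 0.421 (SD, n = 3 each), and these groups did not overlap. Lepr, the leptin receptor, whose chain resembles gp130, had 5.58, 1.89 and 1.57 FPKM across libraries labelled LPS and 4.70, 5.80 and 5.24 across those labelled LPSKD. LPS replicate 1 lay among the LPSKD libraries, and the other LPS replicates lay far below. The log2 difference was 1.00 (limma, adjusted p = 0.247), and without LPS replicate 1 it was 1.55 (adjusted p = 0.00379). Of the 4 endothelial markers listed, Pecam1 was likewise higher in LPS replicate 1 and the LPSKD libraries, with 1.52, 0.633 and 0.497 FPKM against 1.13, 1.18 and 1.5. The others were not, since Cdh5 had 2.53, 1.43 and 1.69 FPKM against 1.41, 2.22 and 2.64. Kdr and Tek were, like Cdh5, lowest by FPKM in LPSKD replicate 1, with 8 and 7 fragments. Tek also had 7 fragments in LPS replicate 2. The part of such cells in the Lepr values was not tested.

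Ligands and their own receptor chains were often unequal. Csf3r, the receptor of G-CSF, had 0.301 ± 0.124 and 0.242 ± 0.12 FPKM, and Il10ra, the partner of Il10rb for IL-10, had 0.414 ± 0.0705 and 0.328 ± 0.136 (SD, n = 3 each), beside an abundant Csf3 and an Il10 at 0. Il20rb, a receptor chain used by Il24, had 2.30 ± 0.399 and 1.88 ± 0.273 FPKM (SD, n = 3 each), while Il20ra was at 0 in all 6 libraries. Il22ra1, a further receptor chain of the IL-10 family, was low but detected in every library, with 10 to 42 fragments. For IL-6 and oncostatin M the receptor chain was detected in every library and the ligand hardly at all.

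**Figure D3:**
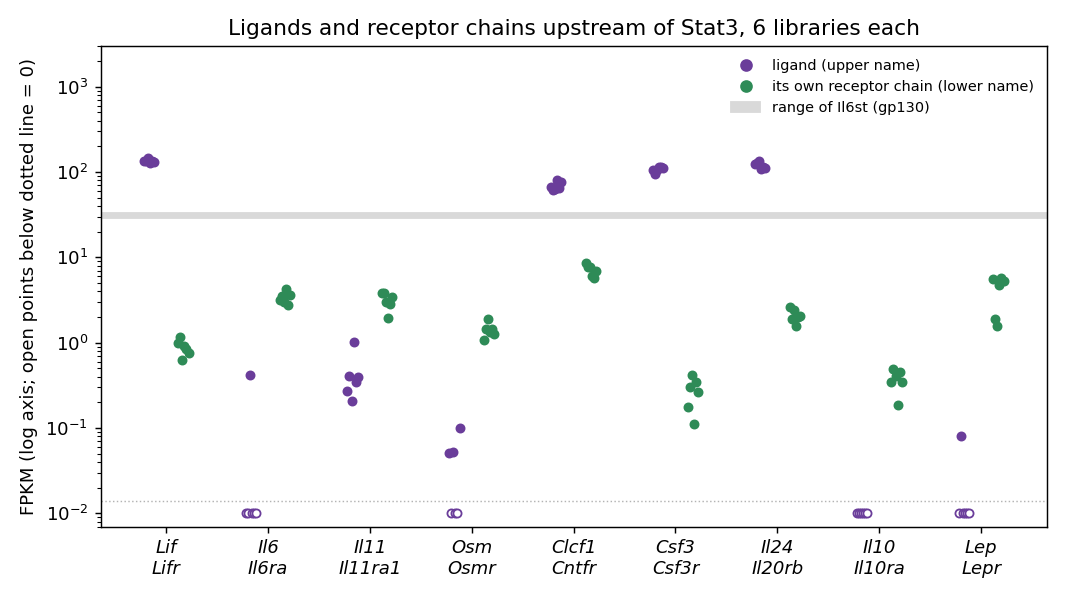
FPKM on a log axis of 9 ligands (purple, upper name) and a receptor chain of each (green, lower name), with 6 points per gene, 1 for each library, open points below the dotted line for a value of 0, and a grey band for the range of Il6st. Lif, Clcf1, Csf3 and Il24 lie above the Il6st band and their receptor chains below it, whereas Il6, Osm, Il10 and Lep lie at or near 0.

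No kinase, phosphatase or inhibitor around Stat3 passed the threshold. Of 20 listed genes 19 were tested, 0 had an adjusted p under 0.05 in limma and 0 by voom, and 0 had an unadjusted p under 0.05, against 17.6% of all tested genes. Their median log2 difference was 0.03, with 12 above 0 and 7 below. Jak1, the kinase most used by gp130, had 44.0 ± 1.74 and 45.2 ± 0.951 FPKM, Jak2 had 25.7 ± 0.670 and 25.1 ± 0.883, and Tyk2 had 7.55 ± 0.654 and 7.50 ± 0.457 (SD, n = 3 each). The most abundant of the list was Ptpn11, the phosphatase SHP2 that docks on gp130, with 113 ± 4.90 and 120 ± 3.83 FPKM (SD, n = 3 each; limma, adjusted p = 0.358). It was followed by Socs2, an inhibitor of cytokine signalling, at 76.4 ± 2.03 and 73.8 ± 1.39 FPKM, and by the phosphatase Ptpn1 at 56.8 ± 3.18 and 58.4 ± 2.44 (SD, n = 3 each). Adam10, a sheddase of the IL-6 receptor, had 55.5 ± 2.28 and 54.3 ± 1.86 FPKM (SD, n = 3 each; limma, adjusted p = 0.798).

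Socs3, the feedback inhibitor that binds gp130 and is itself a target of Stat3, had 7.2, 6.01 and 7.15 FPKM across libraries labelled LPS and 5.99, 7.07 and 8.28 across those labelled LPSKD. The groups overlapped throughout, and the log2 difference of 0.06 had a 95% interval from −0.25 to 0.37 (limma, adjusted p = 0.873). Its sign turned without LPS replicate 2 (−0.025) or LPSKD replicate 3 (−0.055), and without LPSKD replicate 1 it was 0.17. The acetyltransferase genes Ep300 and Crebbp, which the study relates to the Stat3 gene, had log2 differences of −0.04 and 0.03 (limma, adjusted p = 0.783 and 0.91).

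Of the STAT genes Stat2, Stat4, Stat5a, Stat5b and Stat6, 4 were tested, 1 was lower and 0 were higher at an adjusted p under 0.05 (limma), where 1.66% of all tested genes were lower. The lower one was Stat2, a mediator of the type I interferon response, which had 14.8 ± 0.996 and 10.3 ± 0.651 FPKM (SD, n = 3 each), for a log2 difference of −0.52 (limma, adjusted p = 0.0131). That call was lost without LPS replicate 3 or LPSKD replicate 1 or 2, with adjusted p up to 0.068.

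Stat5a, Stat5b and Stat6 did not pass the threshold. Stat6, the mediator of IL-4 signals and the most abundant of these genes, had 44.4 ± 2.0 and 44.2 ± 2.75 FPKM (SD, n = 3 each; limma, adjusted p = 0.963). Stat5b had 11.4 ± 0.866 and 11.7 ± 0.453 FPKM (SD, n = 3 each; limma, adjusted p = 0.894). Stat5a, whose exons overlap those of Stat3 on the opposite strand, had 61 to 99 fragments per library (limma, adjusted p = 0.846). The sources used here do not state whether the counting used strand, but this number is small beside the 1775 to 2013 of Stat3.

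Of 35 genes listed as Stat3 targets, 32 were tested, and 1 was higher and 1 lower at an adjusted p under 0.05 (limma), against 1.57% and 1.66% of all tested genes. With 14 differences above 0 and 18 below, their median was −0.02 on the log2 scale, beside −0.01 for all tested genes. At an unadjusted p under 0.05 there were 7 of 32, and 7 had groups that did not overlap, against 17.6% and 23.8% of all tested genes. Lcn2, the gene of lipocalin-2, a secreted marker of tubular injury, had 709, 708 and 741 FPKM across libraries labelled LPS. It had 1007, 1004 and 985 FPKM across those labelled LPSKD, all above the LPS libraries. Lcn2 rose by 0.47 on the log2 scale (95% interval 0.40 to 0.55; limma, adjusted p = 0.000155), a call that was kept in all 16 alternatives. Timp1, an inhibitor of matrix metalloproteinases, had 60.1 ± 1.63 and 51.3 ± 1.26 FPKM (SD, n = 3 each), for a log2 difference of −0.23 (limma, adjusted p = 0.0288). The Timp1 call was lost when any single library other than LPS replicate 1 was left out, with adjusted p up to 0.127, and with voom (0.0595).

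The other most abundant targets did not pass the threshold. Ccnd1, the gene of cyclin D1, had 935 ± 61.0 and 937 ± 14.1 FPKM, Bcl2l1, which encodes the survival factor Bcl-xL, had 425 ± 13 and 438 ± 4.87, and Myc had 270 ± 8.50 and 259 ± 4.65 (SD, n = 3 each). Their limma adjusted p were 0.969, 0.543 and 0.448. Fos, Ccl2, Vegfa, Arid5a and Hif1a had groups that did not overlap without passing the threshold, with log2 differences of −0.46, 0.46, −0.18, −0.26 and −0.08 (limma, adjusted p = 0.0719, 0.0793, 0.09, 0.166 and 0.316). Without LPS replicate 1, Vegfa passed as well (log2 difference −0.22, adjusted p = 0.0311).

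**Figure D4:**
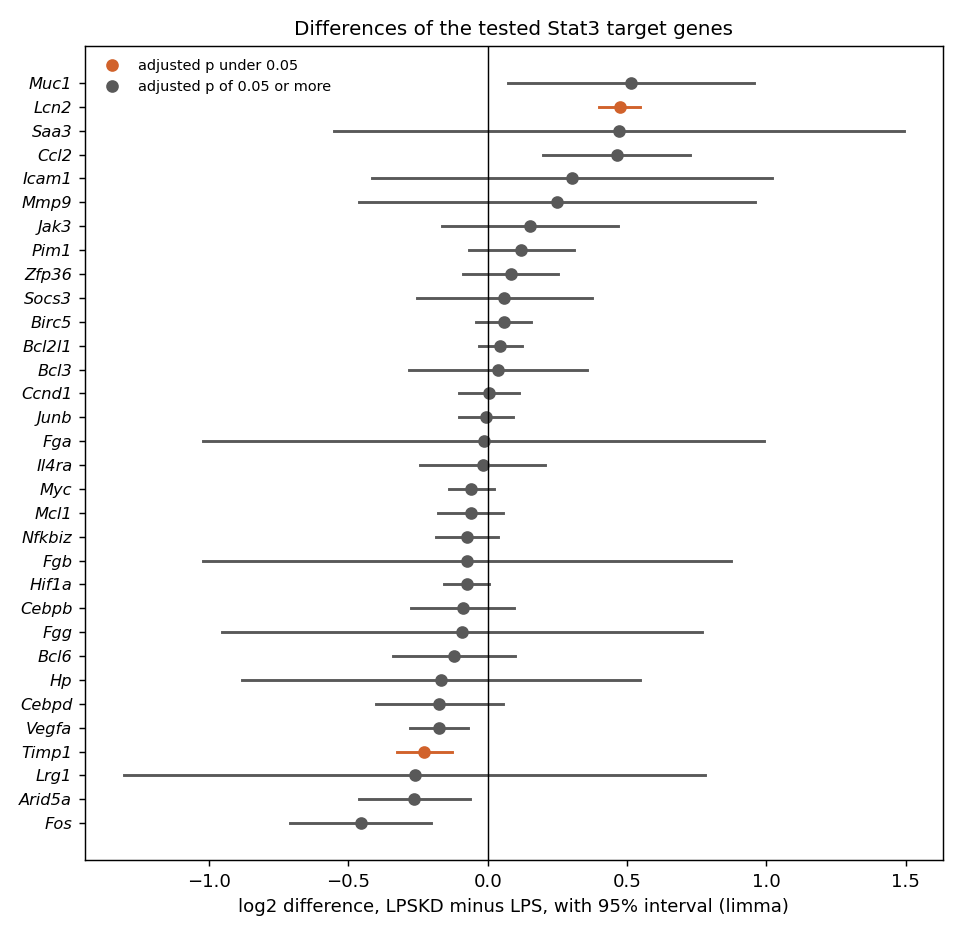
Log2 difference (LPSKD minus LPS) with its 95% interval from limma for the 32 tested Stat3 targets, sorted by size, with orange for an adjusted p under 0.05. Points lie on both sides of 0, 14 above and 18 below, Lcn2 and Timp1 are coloured, and the acute-phase genes Fga, Fgb, Fgg, Hp and Lrg1 have intervals that reach well to both sides of 0.

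Within the libraries labelled LPS, 5 of the 6 targets taken here as acute-phase genes varied together by much more than Stat3 did. Saa3 went the other way, and the 6 were picked after their values were seen. Fga, Fgb and Fgg, the fibrinogen chains, Hp (haptoglobin) and Lrg1 are classical products of IL-6 and Stat3 signalling in the liver. Fgb had 48.4, 79.7 and 20.4 FPKM across libraries labelled LPS and 37.5, 35.2 and 51.1 across those labelled LPSKD, so that the LPS group enclosed the other. All 5 genes were highest in LPS replicate 2 and lowest in LPS replicate 3. Their highest value was between 2.84 and 4.01 times the lowest within libraries labelled LPS, and between 1.28 and 1.83 times within those labelled LPSKD. For the 28 other targets above 0 in all libraries the median of this ratio was 1.12 and 1.16, and 1 of 28 was lowest in LPS replicate 3. Lcn2, often also counted among acute-phase proteins, was in these 28, with 1.05 and 1.02. Saa3, a serum amyloid gene, had 0.351, 0.877 and 1.34 FPKM across libraries labelled LPS and 0.787, 1.36 and 1.20 across those labelled LPSKD, from 4 to 15 fragments. It was lowest in LPS replicate 1, and among the LPS libraries highest in replicate 3, a range of 3.82 times. Stat3 itself was at 31.4 FPKM in LPS replicate 2 and at 35.2 in LPS replicate 3, the opposite order. The only Il6 fragments were in LPS replicate 3, where the 5 genes were lowest. None of the 5 passed the threshold between the groups (limma, adjusted p from 0.825 to 0.99), and a log2 difference of up to 0.99 in Fga lay inside its 95% interval.

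**Figure D5:**
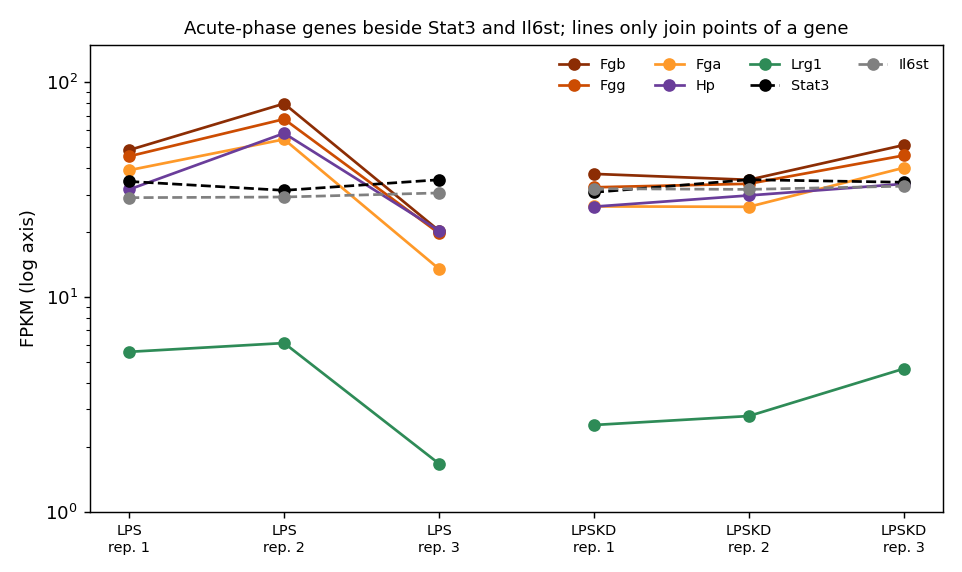
FPKM on a log axis of Fga, Fgb, Fgg, Hp and Lrg1 (solid lines) and of Stat3 and Il6st (dashed lines) in each library, where lines only join the points of a gene within a group and carry no order. The 5 acute-phase genes peak in LPS replicate 2 and are lowest in LPS replicate 3, while Stat3 and Il6st stay between 29.1 and 35.2 FPKM.

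To describe which genes followed the small variation of Stat3, the 9356 genes with a mean of at least 5 FPKM were ranked by Pearson's r with Stat3 over the 6 libraries. The highest were Tsen34 (0.984), Phip (0.976), Zfp346 (0.975), Stx2 (0.972) and Trmt2b (0.969), and 44 genes had an r over 0.9. Tsen34, for instance, had 105, 99.2 and 107 FPKM across libraries labelled LPS and 98.3, 108 and 107 across those labelled LPSKD. It was low in the same libraries as Stat3, LPS replicate 2 and LPSKD replicate 1. The 6 points share library and depth, and none of the 5 genes is on the lists above. With 6 points and 9356 genes, some values of r are high by chance alone. Whether the 44 exceed that number was not tested.

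The promoters of the 10 genes were read for the sequences that STAT dimers bind, since Stat3 and some of its receptors are described as targets of Stat3 itself. RefSeq windows (GRCm38.p6, 250 bases before to 50 after the start) existed for 9 of the 10, 12 windows in all. The motif TTCNNNGAA, searched on both strands, was in 0 of the 12, against 8.30% of all 32851 windows, and its stricter form TTCCNGGAA was also in 0, against 1.15%. The looser half-site forms TTCNNNTAA or TTANNNGAA were in 3 of the 12 windows, against 10.4% of all windows. These were TTCCGCTAA in Stat3 (chr11:100939771-100939779, minus strand, from base −239), TTACGGGAA in Il6st (chr13:112463950-112463958, plus strand, from base −120) and TTCCCGTAA in Osmr (chr15:6874340-6874348, minus strand, from base −35). A match of letters is not a binding site, and the lack of one covers these windows alone.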

How the data were processed

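The authors deposited FPKM values for each gene and library, without pooling of replicates. Per the labels, poly(A) RNA gave paired-end Illumina reads, and the submitters' processing notes list HISAT2 2.0, StringTie 1.3.0 and Bowtie 0.12.2 with the builds mm8 and GRCh38.p13, without their roles. The counting tool and its handling of strand are not given in the sources used here. Identifiers were matched to GENCODE M21 (GRCm38), 22399 with a symbol and 43 without.

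Multiplying each FPKM by gene length and library total gave whole fragments, within 0.01, for 100% of the 16837 genes above 0. For 97.8% the length that gave them exceeded the merged coding sequence by 0 to 10 bases, and for 377 it was found by search. With totals raised by 0.1%, 0.0166% of 12074 well-covered genes came out whole. Exact Poisson intervals and the 3 fragments that a count of 0 allows cover counting error only.

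Groups came from the sample titles. Differences were tested with limma 3.58.1 in R 4.3.3 (lmFit, eBayes with trend) on log2(FPKM + 0.1). The 11723 genes whose mean reached 0.5 FPKM were tested, with Benjamini-Hochberg adjustment and a threshold of 0.05. Members below it were read from the unfiltered fit. Differences of low genes are understated on this scale. Of the 11723, 379 passed, 184 higher and 195 lower in the libraries labelled LPSKD. Exact permutation tests were two-sided over 20 assignments. The fit was also run on simulated counts with a fixed spread and with changes larger than nearly all differences given here. That run does not show how well small differences are detected. Alternatives were other pseudocounts and filters, quantile normalization, median centring, a replicate block, eBayes without trend, voom on the recovered fragments, and each library left out in turn.

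The 10 genes and all lists were chosen with earlier results of these data known, and no list received a set test. An item of the lists is not reported here. By rule, the text names the 10 genes, every listed gene past the threshold, the 4 most abundant genes of a list and the 5 genes most like Stat3. Other named genes were chosen after their values were seen: Cntfr, Lepr, Csf3r, Il10ra, Il20ra, Il20rb, Il22ra1, Ctf1, Osm and the ligands at 0, Jak1, Jak2, Tyk2, Socs3, Ep300, Crebbp, Stat4, Stat5a, Fos, Ccl2, Vegfa, Arid5a, Hif1a, the 6 acute-phase genes and the single stromal, endothelial, immune and segment markers. Shared coding sequence was sought as stretches of 31 bases in transcripts of other genes. The antisense gene Gm42809, which shares 3.99% of those of Il6ra, was not used here. ChIP-seq was not analysed here. Figures were drawn with matplotlib 3.10.9.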

Additional observations from a re-analysis of the deposited data

How the results depend on the processing

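No member passed the threshold under any of 16 alternatives, and 0 or 1 had an unadjusted p under 0.05 (limma). With 1 library left out, the log2 difference of Stat3 lay between −0.064 and 0.044, that of Il6ra between −0.0093 (without LPSKD replicate 1) and 0.28, and that of Lifr between −0.32 and 0.085 (without LPS replicate 2). That of Osmr lay between −0.28 and 0.11 (without LPS replicate 3), and that of Il10rb between −0.014 (without LPSKD replicate 1) and 0.12, so these 5 signs are not fixed. Among all genes, the 379 past the threshold became 140 in eBayes without trend, 599 with voom, and 158 to 357 with 1 library left out, the fewest without LPS replicate 3. The 1 called ligand, Il24, became 0 with no filter, in eBayes without trend, with the replicate block, and in 0 to 1 with 1 library left out. Among the other receptors 0 became 1 with voom (Egfr), and 0 to 1 with 1 library left out (Lepr without LPS replicate 1). The 1 called gene among Stat2, Stat4, Stat5a, Stat5b and Stat6, Stat2, became 0 to 1 with 1 library left out. The 2 called targets became 1 in eBayes without trend, with the replicate block and with voom, Lcn2 in each case, and 1 to 3 with 1 library left out. The 5 called tubule markers were 1 in eBayes without trend and 2 to 5 with 1 library left out, the fewest without LPS replicate 3 or LPSKD replicate 3. The cause of these changes was not tested. Replicate numbers are shared by the groups, but the deviations of same-numbered libraries did not correlate (−0.02, −0.00 and −0.04). This shows no shared deviation and cannot tell whether same-numbered libraries were prepared together. With the replicate block 213 genes and 0 members passed, and Il24, Timp1 and Krt18 were lost (adjusted p = 0.0623, 0.0589 and 0.0808). Depth limits Il6 and Il11, with at most 8 and 15 fragments per library. For Lifr, Osmr and Il11ra1, counting error and the spread between libraries were not set apart.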
